A study of Homo sapiens with 8 samples.

Results

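A set of 40 genes whose products build ribosomes or transcribe ribosomal RNA was followed through 8 RNA-seq libraries of a colon cancer cell line. The genes were given as a list of symbols by their function, and each symbol mapped to 1 of the 64253 gene identifiers in the count tables. All 40 passed the filter on low counts, as did 20305 genes in all. By role they comprised 10 genes of small nucleolar ribonucleoproteins (snoRNPs), 3 nucleolar scaffold or chaperone genes, 12 genes of the small subunit processome and of small subunit maturation, 9 genes grouped with large subunit assembly, and 6 genes of RNA polymerase I (Pol I) transcription. The roles are a grouping made for description, and the branch of some genes, such as DDX10 and EXOSC10, can be assigned otherwise.

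The libraries fall into 4 groups of 2. HCT-8 cells come from a human intestinal adenocarcinoma and respond to the drug 5-fluorouracil (5-FU), whereas the HCT-8/FU line paired with them, a single line, is resistant. These 2 groups grew in unconditioned medium. In both groups whose names start with CM, for conditioned medium, the cells were HCT-8 in both cases, and their medium had been conditioned for 48 hours by HCT-8 (the group CM of HCT-8) or by HCT-8/FU cells (the group CM of HCT-8/FU). No group is labelled as having 5-FU in the medium during the experiment. Nothing in the labels says that the replicates of a group were separate cultures, so the p-values measure only the spread between these libraries, which may be technical. The libraries held 5804124 to 34881349 counts on genes. HCT-8 replicate 1, HCT-8/FU replicate 2 and CM of HCT-8 replicate 1 stood apart, with 19.96% to 29.6% of their records not aligned against 3.58% to 4.43% in the other 5. All 11 colon epithelial markers examined averaged above 5 counts per 1000000 (CPM), as did 2 of 6 fibroblast markers, COL1A1 (11.4 CPM) and PDGFRB (6.02 CPM). COL1A2 was at 0 in every library, and COL3A1, DCN and LUM reached at most 0.16 CPM. Summed, the fibroblast markers ran from 12.5 to 22.3 CPM over the libraries, highest in CM of HCT-8, and their part in the results was not tested. The 6 leukocyte markers averaged under 1 CPM each, with PTPRC and CD3E at 0.

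A ribosome starts in the nucleolus, where Pol I transcribes the long precursor of the ribosomal RNAs with the help of UBTF, RRN3 and the selectivity factor that contains TAF1D. The small subunit processome assembles on this precursor, box C/D and box H/ACA snoRNPs guide its methylation and pseudouridylation, and further factors cut, fold and export the subunits. 5-FU is known to be incorporated into RNA and to disturb the processing and modification of ribosomal RNA, which is the reason to look at these genes in a 5-FU-resistant line.

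The stretches of DNA upstream of a few of these genes are shown first, because the genes with the largest differences can be read against them. RefSeq promoter windows (assembly GRCh38.p14, from 250 bases before to 50 bases after a gene's start) were found for 34 of the 40 genes. The E-box CACGTG, the site bound by MYC and related factors, reads the same on both strands and was present in the windows of 12 of the 34 genes (35.3%), against 2396 of 27305 genes in the whole table (8.77%). The letters CCGGAAG, the core recognised by ETS factors, were found on either strand in 13 of the 34 (38.2%) against 12.2% of all genes. The 250 bases before the start are given for UTP20 and HEATR1, which were higher in both comparisons of resistant with sensitive source cells, and for NOP10, which was lower in one of them. Capitals mark CACGTG. The UTP20 window lies at chr12:101279855-101280104 on the plus strand, with the first letter of its single E-box 10 bases before the start. The NOP10 window lies at chr15:34343137-34343386 on the minus strand with 2 E-boxes, and the HEATR1 window, at chr1:236604517-236604766 on the minus strand, holds none.
UTP20: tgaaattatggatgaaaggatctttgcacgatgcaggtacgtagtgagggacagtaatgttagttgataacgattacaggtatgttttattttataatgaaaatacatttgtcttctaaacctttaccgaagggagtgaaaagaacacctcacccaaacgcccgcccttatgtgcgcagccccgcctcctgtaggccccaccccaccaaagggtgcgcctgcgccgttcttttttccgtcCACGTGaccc
NOP10: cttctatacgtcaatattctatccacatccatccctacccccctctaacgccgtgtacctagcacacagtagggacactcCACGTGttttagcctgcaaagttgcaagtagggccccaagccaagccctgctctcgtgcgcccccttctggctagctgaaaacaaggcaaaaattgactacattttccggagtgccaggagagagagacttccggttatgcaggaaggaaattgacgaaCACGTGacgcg
HEATR1: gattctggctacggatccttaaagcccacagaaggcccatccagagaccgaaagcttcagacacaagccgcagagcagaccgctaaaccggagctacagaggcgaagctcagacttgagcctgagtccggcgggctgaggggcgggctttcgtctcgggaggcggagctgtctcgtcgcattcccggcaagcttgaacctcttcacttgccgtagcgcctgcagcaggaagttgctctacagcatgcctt

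Genes with the E-box lay in both directions. Of the 12 genes with an E-box, 5 had a positive and 7 a negative log2 fold change between the 2 lines, with a median of -0.14, and of the 22 genes without one 15 were positive, with a median of 0.17. Between the conditioned media the medians were -0.26 with and -0.10 without the E-box. The split between the lines was not particular to the E-box. For the ETS core the medians there were -0.15 in the 13 genes with it and 0.18 in the 21 without. Base composition, described below, was not taken out of these medians. These are descriptions of small sets and carry no test. A second feature is that 8 of the 40 genes (20%) hold annotated small nucleolar or Cajal body RNA genes inside them, against 269 of 19550 protein-coding genes (1.38%). TAF1D holds 8 of them, NOP56 5, NOP58 4, NCL and WDR43 3 each, DKC1 and TSR1 2 each and POLR1C 1. None of these 8 hosts passed both thresholds in edgeR or DESeq2 in the comparisons between groups described next, where 21.3% (between the 2 lines), 9.25% (between the 2 media) and 8.15% (CM of HCT-8 versus HCT-8) of all genes did so in edgeR.

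**Figure D1:**
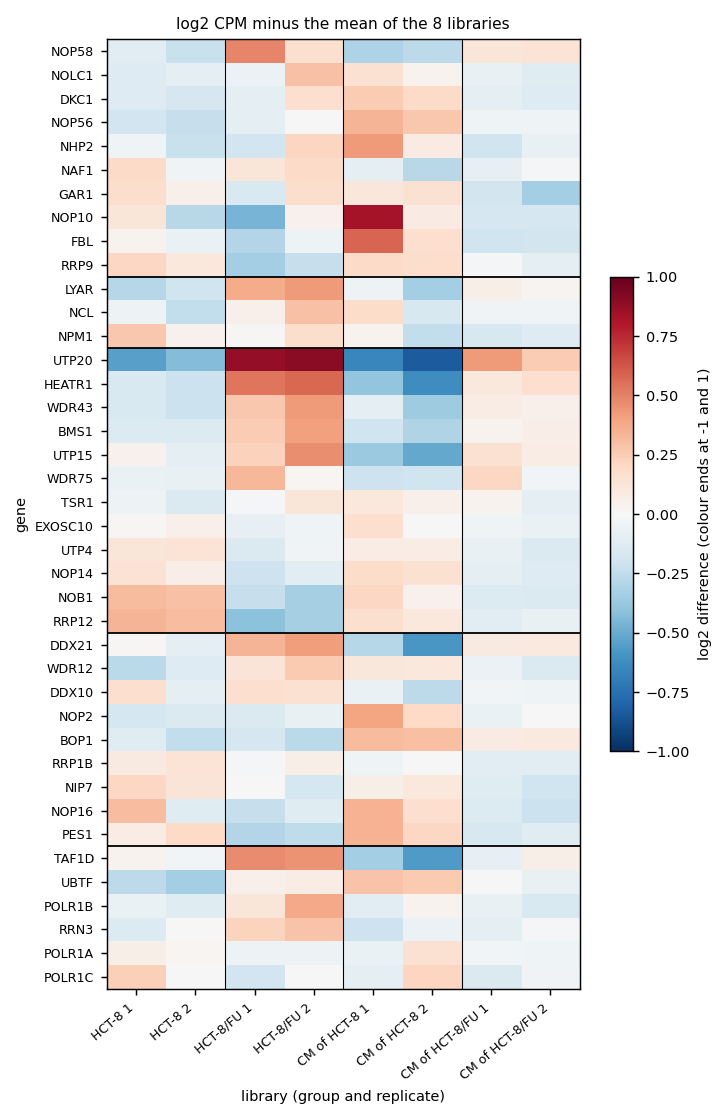
Each row is 1 of the 40 genes, ordered by role from snoRNP genes at the top to Pol I genes at the bottom, and each column 1 library. Colour gives the log2 CPM minus that gene's mean over the 8 libraries. UTP20 spans the widest range, from 16.6 CPM in CM of HCT-8 replicate 2 to 55.3 CPM in HCT-8/FU replicate 2.

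Levels were read as CPM after TMM scaling, and between genes only per kilobase of exon. Averaged over the libraries, NPM1 (97.5 CPM per kilobase) and NCL (88.1), the most abundant nucleolar chaperones of many cells, stood highest, followed by NOB1 (78.2), the endonuclease that makes the last cut in small subunit RNA. DDX10 (1.54), UTP20 (3.27), NAF1 (3.27) and UTP15 (3.45) stood lowest. UTP20 is therefore one of the least abundant transcripts of the set as well as the most variable one. In bulk RNA, a different number of cells of one kind and a different amount of RNA per cell cannot be told apart, and CPM express shares of the total.

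The first question was which of these genes differ between the resistant and the sensitive line in plain medium. A gene passed both thresholds when its FDR, the Benjamini-Hochberg adjusted p-value over all 20305 genes from the quasi-likelihood test of edgeR, was 0.05 or less and its absolute log2 fold change 0.58 or more. Between the 2 lines, UTP20, HEATR1 and LYAR were higher, RRP12 and NOB1 were lower, and 35 genes did not pass. These 5 of 40 compare with 21.3% of all tested genes (13.2% higher and 8.12% lower), and the count shows nothing beyond that background share. By the FDR alone 14 genes were higher and 6 lower, against 36.7% of all genes in either direction (3770 of 20305 higher and 3672 lower). Counts at an unadjusted p under 0.05 in edgeR are given below without the share over all genes and carry no result about the list. The median log2 fold change of the 40 was 0.14 and that of all genes 0.01. Because fold changes went along with base composition, each was also computed with a correction. A spline of GC content and exonic length was then taken out of every library. This corrected value is given for many of the genes where it ends a call or turns a direction, but not for all. A gene given without it may still have moved.

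Of the 5 genes that passed, 4 belong to the small subunit branch, and they did not share a direction. That branch holds 12 of the 40 genes, and 21.3% of all tested genes passed. Among 41 other small subunit genes outside the set, 3 were higher and 3 lower. These small counts carry no result about the branch. UTP20 (ENSG00000120800, chr12:101280105-101386618), a large scaffold protein of the small subunit processome, was at 20.3 and 21.8 CPM in HCT-8 and at 54.4 and 55.3 CPM in HCT-8/FU. Both resistant libraries lay above both sensitive ones, a difference of 1.37 ± 0.11 (log2, SE, n = 2 per group) or 2.58-fold, with an edgeR FDR of 2.66e-07. Such a separation was common: 32.7% of all genes lay above in this way between the lines and 32.3% below. HEATR1 (ENSG00000119285, chr1:236549005-236604516), another processome component that is also required for Pol I transcription, was at 134 and 128 CPM in HCT-8 and at 216 and 221 CPM in HCT-8/FU. It rose by 0.74 ± 0.08 (log2, SE, n = 2 per group), with an edgeR FDR of 5.51e-06. RRP12 (ENSG00000052749, chr10:97356358-97426076), which helps to export the subunits, went from 120 and 117 CPM to 71.3 and 75.4 CPM, a log2 fold change of -0.70 ± 0.08 with an edgeR FDR of 5.32e-06. NOB1 (ENSG00000141101, chr16:69741871-69754926) was at 202 and 199 CPM in HCT-8 and at 138 and 129 CPM in HCT-8/FU, a log2 fold change of -0.58 ± 0.08, with an edgeR FDR of 3.17e-05. Its size lies at the fold threshold, and it fell short of that threshold under 10 of 20 other settings. The processome genes WDR43 (0.53) and BMS1 (0.46) were higher by the FDR alone, as was UTP15 (0.37), whereas NOP14 (-0.26) and UTP4 (-0.23) were lower by the FDR alone. None of these 5 passed the FDR after the correction, with corrected values of 0.23, 0.13, -0.12, -0.15 and -0.23 in the same order, so that UTP15 turned in direction.

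Among the nucleolar scaffold genes, LYAR (ENSG00000145220, chr4:4267701-4290154), a nucleolar protein linked to rRNA processing, was at 23.2 and 24.6 CPM in HCT-8 and at 36.5 and 37.9 CPM in HCT-8/FU. The rise of 0.62 ± 0.12 (log2, SE, n = 2 per group) had an edgeR FDR of 0.000597 and fell to 0.58 without HCT-8 replicate 1, just under the fold threshold. NCL was at 754 and 658 CPM in HCT-8 and at 807 and 955 CPM in HCT-8/FU. Its log2 fold change of 0.32 passed by the FDR alone (edgeR FDR 0.0275), and the corrected value of 0.27 did not (edgeR FDR 0.152). NPM1 was at 970 and 828 CPM in HCT-8 and at 813 and 911 CPM in HCT-8/FU. The groups overlapped, with a log2 fold change of -0.06 ± 0.10 and an edgeR FDR of 0.677. NPM1 has 49 annotated pseudogene copies, which could take or lend reads.

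Of the 10 snoRNP genes, none passed both thresholds here in edgeR, where 3 had an unadjusted p under 0.05, and none did so in DESeq2. NOP58, a core protein of box C/D particles, was at 52.5 and 48.6 CPM in HCT-8 and at 79.3 and 63.2 CPM in HCT-8/FU. The log2 fold change of 0.53 ± 0.11 had an edgeR FDR of 0.00102 and stayed under the fold threshold, which it passed without HCT-8/FU replicate 2 (0.65). Without HCT-8/FU replicate 1 it fell to 0.32, and the corrected value was 0.03 (edgeR FDR 0.859). RRP9, the protein particular to the U3 snoRNP, was at 33.3 and 31.0 CPM in HCT-8 and lower, at 22.9 and 24.6 CPM, in HCT-8/FU. Its log2 fold change was -0.44 ± 0.11 with an edgeR FDR of 0.00427, and -0.24 after the correction (edgeR FDR 0.233). FBL, the methyltransferase of box C/D particles, was at 98.6 and 92.1 CPM in HCT-8 and at 78.73 and 92.9 CPM in HCT-8/FU, which overlap (-0.16 ± 0.12, edgeR FDR 0.323). The box H/ACA core genes DKC1, which encodes the pseudouridine synthase, NHP2, NOP10 and GAR1 had log2 fold changes between -0.15 and 0.18, none past the FDR.

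Of the 9 large subunit genes, 4 had an unadjusted p under 0.05 in edgeR, and none passed both thresholds there or in DESeq2. DDX21, an RNA helicase that acts on Pol I transcripts and snoRNAs, was at 248 and 230 CPM in HCT-8 and at 312 and 329 CPM in HCT-8/FU (0.42 ± 0.09, edgeR FDR 0.00145). PES1 was at 85.6 and 93.0 CPM in HCT-8 and lower, at 66.2 and 68.2 CPM, in HCT-8/FU (-0.42 ± 0.09, edgeR FDR 0.00123). Neither kept the FDR after the correction, at 0.02 for DDX21 (edgeR FDR 0.894) and -0.20 for PES1 (edgeR FDR 0.161). PES1, BOP1 and WDR12 encode the 3 proteins of one complex, and in this comparison they differed from each other in sign: WDR12 had a log2 fold change of 0.37 (edgeR FDR 0.00722) and BOP1 of -0.02 (edgeR FDR 0.869). The signs of both turned under the correction, to -0.12 for WDR12 (edgeR FDR 0.443) and 0.18 for BOP1 (edgeR FDR 0.224).

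Of the Pol I genes, 4 of 6 were higher by the FDR alone, against 3770 of all 20305 genes. None of the 6 passed both thresholds in edgeR, where 4 had an unadjusted p under 0.05, or in DESeq2. TAF1D was at 87.7 and 83.9 CPM in HCT-8 and at 119 and 117 CPM in HCT-8/FU (0.47 ± 0.09, edgeR FDR 0.000819). UBTF (ENSG00000108312, chr17:44205033-44221626), which coats active rRNA genes, was at 93.3 and 88.1 CPM in HCT-8 and at 116 and 118 CPM in HCT-8/FU (0.37 ± 0.08, edgeR FDR 0.0014). POLR1B (0.33) and the initiation factor RRN3 (0.30) were the others. After the correction UBTF alone of these 4 passed the FDR (0.57): TAF1D turned to -0.21 (edgeR FDR 0.12) and RRN3 to -0.07 (edgeR FDR 0.686), and POLR1B was at 0.14 (edgeR FDR 0.422). POLR1A, the largest Pol I subunit, was at 132 and 129 CPM in HCT-8 and at 122 and 123 CPM in HCT-8/FU. Although both resistant libraries lay lower, its log2 fold change of -0.09 ± 0.08 had an edgeR FDR of 0.451.

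**Figure D2:**
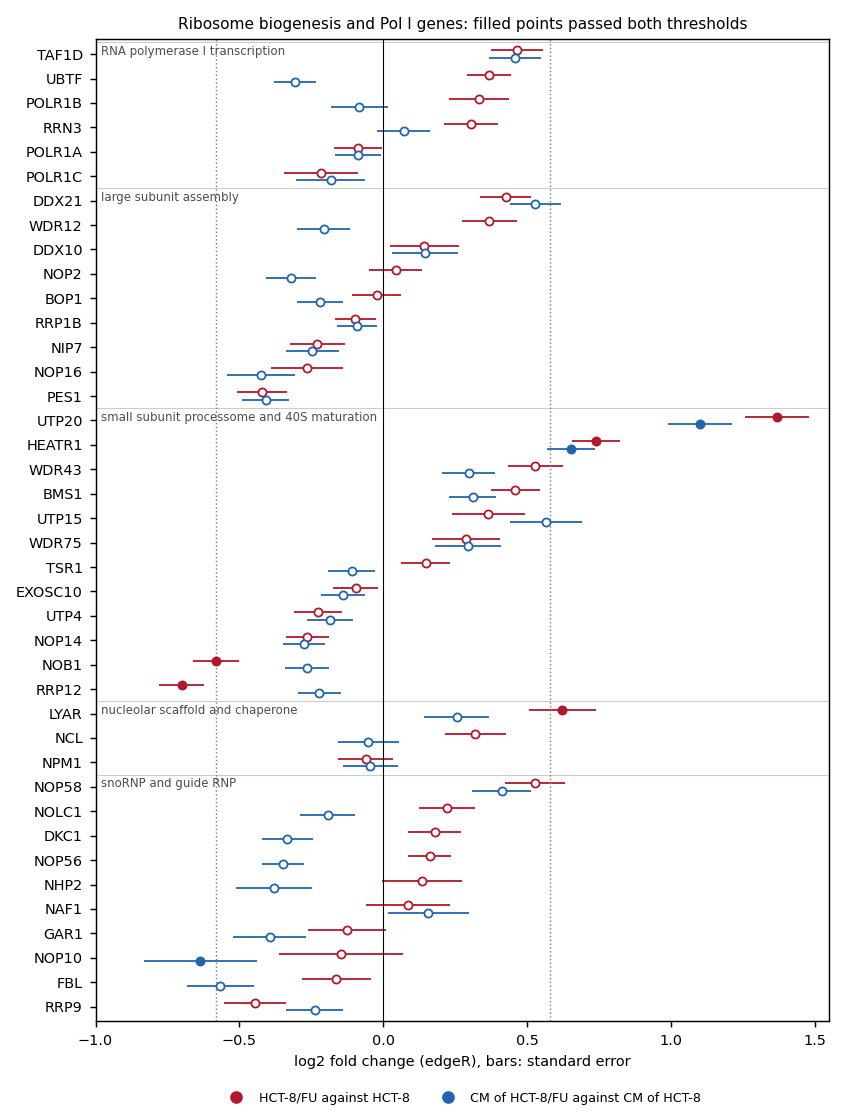
Log2 fold changes with their SE for the 40 genes, grouped by role, for HCT-8/FU versus HCT-8 (red) and CM of HCT-8/FU versus CM of HCT-8 (blue). Dotted lines mark a log2 fold change of 0.58 in either direction, and filled points passed both thresholds (5 genes in red, 3 in blue).

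The second question was which genes differ in HCT-8 cells according to whose medium they received. This comparison shares no library with the first. Between the 2 media, UTP20 and HEATR1 were higher and NOP10 was lower, while 37 genes did not pass. These 3 of 40 compare with 9.25% of all tested genes (7.97% higher and 1.28% lower). By the FDR alone 8 genes were higher and 12 lower, against 19.7% of all genes in either direction, and the median was -0.16 against -0.06 for all genes.

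UTP20 and HEATR1 thus passed in the same direction in both comparisons. The share of all genes that did so was not counted, so passing in both carries no result particular to these 2 genes. Between the media, 26.9% of all genes lay above without overlap and 34.5% below. UTP20 was at 18.8 and 16.6 CPM in CM of HCT-8 and at 39.7 and 35.2 CPM in CM of HCT-8/FU, with no overlap. The log2 fold change was 1.10 ± 0.11 (SE, n = 2 per group), or 2.15-fold, with an edgeR FDR of 5.59e-06. HEATR1 was at 113 and 96.7 CPM in CM of HCT-8 and at 160 and 167 CPM in CM of HCT-8/FU. It rose by 0.65 ± 0.08 with an edgeR FDR of 4.34e-05, and by 0.54 without CM of HCT-8 replicate 2, under the fold threshold. The difference between the 2 comparisons was 0.27 ± 0.16 for UTP20 and 0.09 ± 0.12 for HEATR1, and neither passed (edgeR FDR 0.339 and 0.725). LYAR, the third gene that was higher in the resistant line, was at 27.3 and 22.3 CPM in CM of HCT-8 and at 29.4 and 28.7 CPM in CM of HCT-8/FU, a log2 fold change of 0.25 ± 0.11 with an edgeR FDR of 0.134.

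The study measured HEATR1 by RT-qPCR as well, and its primers show which end of the transcript was read. The forward primer lies in exon 2 of 45, at chr1:236604097-236604116, and the reverse primer spans the junction of exons 2 and 3, between chr1:236603361 and chr1:236603957 (GRCh38, gene on the minus strand). Lower case is used because no base is singled out.
forward: aaaactccgctggcgtgaaa
reverse: tccaggccagtacatccaat
The primers lie near the start of the gene, whereas RNA-seq counts cover all its exons. Of the exonic bases of HEATR1, 23.1% lie opposite exons of LGALS8. Whether the counting used strand is not given in the sources, and reads there could have been lost or added. UTP20 has no exonic base opposite another gene. Exons on the opposite strand also covered 39.1% of the exonic bases of EXOSC10, 28.0% of NHP2, 26.9% of TSR1, 20.7% of NOP14, 20.4% of NOB1, 18.3% to 18.6% of NOP16, NIP7 and POLR1C, and at most 8.37% of any other member, and NOP2 shares 54.4% of its exonic bases with a gene on its own strand.

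Of the 10 snoRNP genes, 1 was lower past both thresholds between the 2 media. By the FDR alone 5 were lower and 1 higher, against 1723 lower and 2282 higher of all 20305 genes. The median log2 fold change was -0.34, with 8 of 10 negative, against 27 of the 40 negative and a median of -0.06 for all genes. NOP10 (ENSG00000182117, chr15:34339159-34343180), a small structural protein of H/ACA particles, was at 70.9 and 42.0 CPM in CM of HCT-8 and at 35.4 and 35.3 CPM in CM of HCT-8/FU. Its log2 fold change of -0.64 ± 0.20 had an edgeR FDR of 0.0341. The value was carried by CM of HCT-8 replicate 1: without that library it was -0.25 and did not pass. FBL was at 144 and 108 CPM in CM of HCT-8 and at 84.0 and 84.7 CPM in CM of HCT-8/FU (-0.57 ± 0.11, edgeR FDR 0.00257), just under the fold threshold. It also leaned on CM of HCT-8 replicate 1, without which it was -0.35. NOP56, the partner of FBL in box C/D particles, was at 163 and 155 CPM in CM of HCT-8 and at 125 and 125 CPM in CM of HCT-8/FU (-0.35 ± 0.07, edgeR FDR 0.00303). DKC1 (-0.33, edgeR FDR 0.0147) and GAR1 (-0.39, edgeR FDR 0.0404) were also lower by the FDR alone, and NHP2 (-0.38, edgeR FDR 0.0548) missed it narrowly. NOP58 stood apart from its box C/D partners: it was at 45.6 and 47.2 CPM in CM of HCT-8 and at 61.6 and 62.1 CPM in CM of HCT-8/FU, higher by 0.41 ± 0.10 with an edgeR FDR of 0.0105. After the correction this was 0.01 (edgeR FDR 0.972), and FBL, NOP56 and GAR1 no longer passed the FDR (-0.44, -0.24 and -0.46, edgeR FDR 0.0733, 0.115 and 0.0613).

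In the small subunit branch, UTP15, BMS1 and WDR43 were higher in CM of HCT-8/FU by the FDR alone (0.56, 0.31 and 0.30), and NOP14, NOB1 and RRP12 lower (-0.28, -0.26 and -0.22). UTP15 lies just under the fold threshold and passed it under 10 of the 18 other settings that used it, whereas the corrected value was 0.12 (edgeR FDR 0.656). RRP12 was at 106 and 102 CPM in CM of HCT-8 and at 88.0 and 89.8 CPM in CM of HCT-8/FU, without overlap. In the large subunit branch DDX21 was higher (0.53, edgeR FDR 0.000568), at 202 and 165 CPM in CM of HCT-8 and at 262 and 264 CPM in CM of HCT-8/FU. PES1 (-0.41), NOP16 (-0.43) and the RNA methyltransferase gene NOP2 (-0.32) were lower by the FDR alone. None of these small and large subunit genes passed the FDR after the correction, where DDX21 was at 0.15 (edgeR FDR 0.402). Of the Pol I genes, TAF1D was at 67.6 and 57.8 CPM in CM of HCT-8 and at 81.1 and 89.3 CPM in CM of HCT-8/FU (0.46 ± 0.09, edgeR FDR 0.00214), which turned to -0.21 after the correction (edgeR FDR 0.204). UBTF was lower, at 112 and 106 CPM against 136 and 134 CPM in CM of HCT-8 (-0.31 ± 0.07, edgeR FDR 0.00823, corrected -0.23 with an edgeR FDR of 0.168). POLR1A was at 124 and 123 CPM in CM of HCT-8/FU and at 121 and 140 CPM in CM of HCT-8.

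The FDR was missed in all 3 comparisons between groups by 12 genes, among them NPM1, NHP2 and POLR1A. NAF1, an assembly factor of H/ACA particles, stayed between 12.8 and 17.8 CPM over the 8 libraries, and NOLC1, a chaperone of snoRNPs, between 156 and 209 CPM. The small subunit genes TSR1 (93.8 to 113 CPM) and WDR75 (34.3 to 49.8 CPM) and the nuclear exosome nuclease EXOSC10 (110 to 130 CPM) belong here as well. So do NIP7 (41.8 to 55.4 CPM), RRP1B (132 to 157 CPM) and DDX10 (23.1 to 31.2 CPM), which were grouped here with large subunit assembly. POLR1C (30.4 to 40.8 CPM), a subunit that Pol I shares with RNA polymerase III, is another. After the correction DDX10 turned from 0.14 to -0.43 between the lines (edgeR FDR 0.0157). Between the media it turned from 0.15 to -0.45 (edgeR FDR 0.0249). NPM1 then passed the FDR in both, at -0.53 and -0.48 (edgeR FDR 0.0025 and 0.0123). WDR75 turned to -0.30 and -0.24 and NAF1 to -0.33 and -0.19, neither past the FDR. A value that misses the threshold does not show that the groups were alike.

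**Figure D3:**
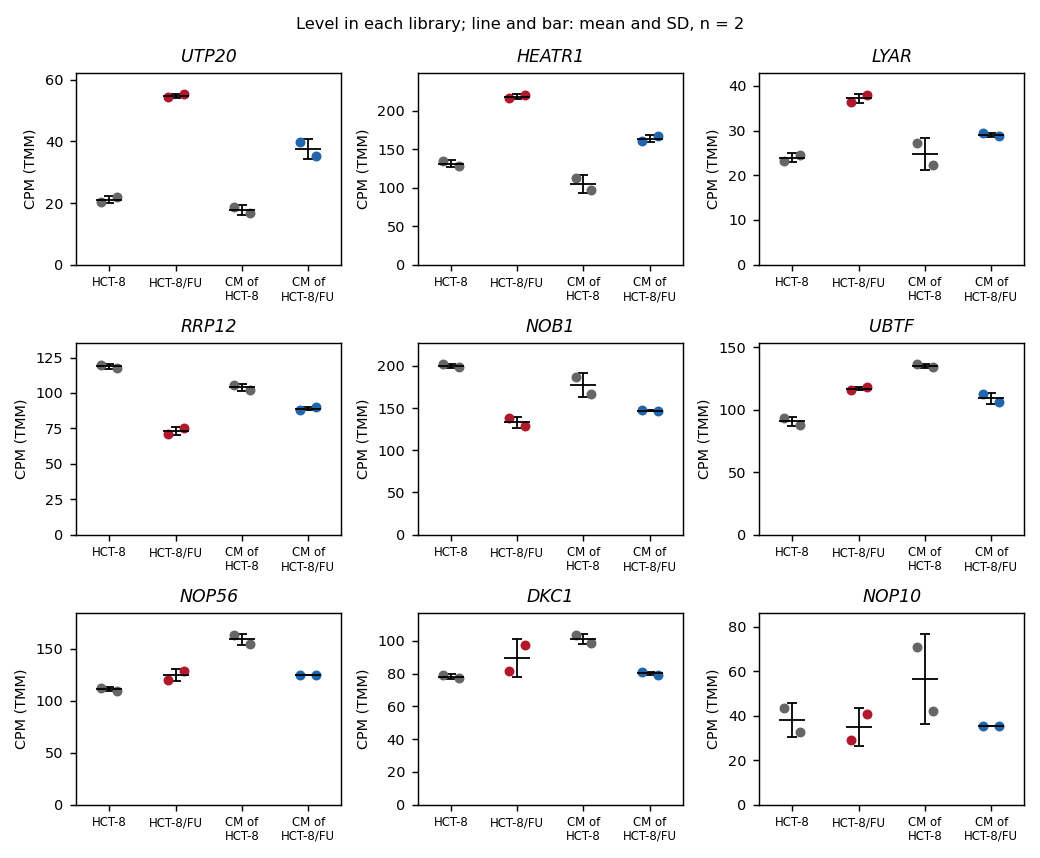
CPM of 9 genes in each library, with the mean and SD of each group (n = 2), on axes that start at 0. UTP20 and HEATR1 were higher in HCT-8/FU cells and in the medium of HCT-8/FU than in their references, UBTF, NOP56 and DKC1 had their highest values in CM of HCT-8, and the 2 CM of HCT-8 libraries of NOP10 lie at 70.9 and 42.0 CPM.

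The last comparison of groups asked what medium conditioned by the same cells did to HCT-8. It shares HCT-8 with the first comparison and CM of HCT-8 with the second. Between CM of HCT-8 and HCT-8, 0 of the 40 genes passed both thresholds in edgeR and 0 in DESeq2, against 8.15% of all tested genes in edgeR (3.86% higher and 4.29% lower). At an unadjusted p under 0.05 there were 18, and by the FDR alone 7 were higher and 4 lower, against 19.4% of all genes. Of all genes, 27.2% lay above and 27.1% below without overlap. UBTF came closest, from 93.3 and 88.1 CPM in HCT-8 to 136 and 134 CPM in CM of HCT-8, without overlap. Its log2 fold change of 0.58 ± 0.08 (0.578 before rounding) had an edgeR FDR of 0.000114, and it passed both thresholds without HCT-8 replicate 1 (0.61) or without CM of HCT-8 replicate 2 (0.59). NOP56 (0.52), BOP1 (0.50), NOP2 (0.45), FBL (0.39), DKC1 (0.37) and WDR12 (0.29) were also higher by the FDR alone. TAF1D (-0.46), UTP15 (-0.41), DDX21 (-0.39) and HEATR1 (-0.33) were lower by the FDR alone. After the correction none of these lower genes passed the FDR. TAF1D was then at -0.16 (edgeR FDR 0.338) and UTP15 at -0.22 (edgeR FDR 0.345). DDX21 was at -0.21 (edgeR FDR 0.208) and HEATR1 at -0.13 (edgeR FDR 0.408). Of the higher genes, BOP1 (0.26, edgeR FDR 0.129) and FBL (0.28, edgeR FDR 0.27) no longer passed it either. Without CM of HCT-8 replicate 2, FBL (0.60) and NOP10 (0.95) passed as well, so that 3 genes did.

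The change between the 2 lines was also tested against the change between the conditioned media in the same fit. This difference passed both thresholds for 1 of the 40 genes, UBTF, against 7.69% of all tested genes (3.55% higher and 4.14% lower). The log2 fold change of UBTF was 0.37 between the lines and -0.31 between the media, a difference of 0.68 ± 0.11 (log2, SE) with an edgeR FDR of 0.000746. Without HCT-8 replicate 2 it was 0.54 and no longer passed. NOP56, DKC1 and WDR12 showed the same order of signs, but NOP56 and DKC1 missed the FDR between the lines and WDR12 between the media. The differences of NOP56, DKC1 and WDR12, of 0.51, 0.51 and 0.58, passed the FDR alone (edgeR FDR 0.00497, 0.0166 and 0.0107). RRP12 was lower in both comparisons and by more in the resistant line, with a difference of -0.48 (edgeR FDR 0.00946). By the FDR alone these 5 genes compare with 11.6% of all genes.

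The differences went along with base composition. The GC content of exons ran from 36.4% for TAF1D to 65.2% for BOP1, with a median of 46.4% for the 40 genes and of 49.0% for all tested genes. Between the 2 lines the Spearman correlation of log2 fold change with GC content was -0.61 across the 40 genes and -0.40 across 19857 genes, and between the conditioned media -0.70 and -0.40. For CM of HCT-8 against HCT-8 the correlations had the other sign, at 0.58 and 0.30. Genes of 1 library share that library's composition, and these values are descriptions. In HCT-8/FU, the 3 genes that were higher lie below the median GC content of all genes (UTP20 41.7%, HEATR1 40.9% and LYAR 45.4%), and the 2 that were lower lie above it (RRP12 56.4% and NOB1 55.0%). All genes did likewise: below the median 22.9% were higher and 3.8% lower, and at or above it 3.64% were higher and 12.6% lower.

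After the correction for GC content and exonic length, UTP20 was the only one of the 40 genes past both thresholds between the 2 lines, at 0.97, against 15.3% of all genes. RRP12 (-0.55), LYAR (0.55), NOB1 (-0.43) and HEATR1 (0.30) kept an FDR under the threshold and fell short of the fold. By the FDR alone 5 genes were then higher (UTP20, LYAR, HEATR1, UBTF and NOP56) and 4 lower (RRP12, NOB1, NPM1 and DDX10). NPM1, whose GC content is 40.3%, was at -0.53. Between the conditioned media, UTP20 (0.72), NOP10 (-0.82) and WDR12 (-0.68) passed, against 4.80% of all genes, and HEATR1 (0.24, edgeR FDR 0.128) did not. By the FDR alone UTP20 was higher and 5 genes lower (NOP10, DKC1, WDR12, NPM1 and DDX10). The difference between comparisons for UBTF was 0.79 and still passed, against 6.75% of all genes. Between CM of HCT-8 and HCT-8, 0 genes passed in edgeR after the correction, as before it, with 10 at an unadjusted p under 0.05 and 5 by the FDR alone (UBTF, NOP56, DKC1, NOP2 and WDR12), against 5.48% of all genes past both thresholds. The median of the snoRNP genes between the conditioned media was then -0.26, with 9 of 10 negative and 2 past the FDR. The corrected median was -0.18 for the 40 genes and -0.07 for all genes. Such a correction removes all that follows GC content, whatever its origin, and the part of composition in the results was not tested further.

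**Figure D4:**
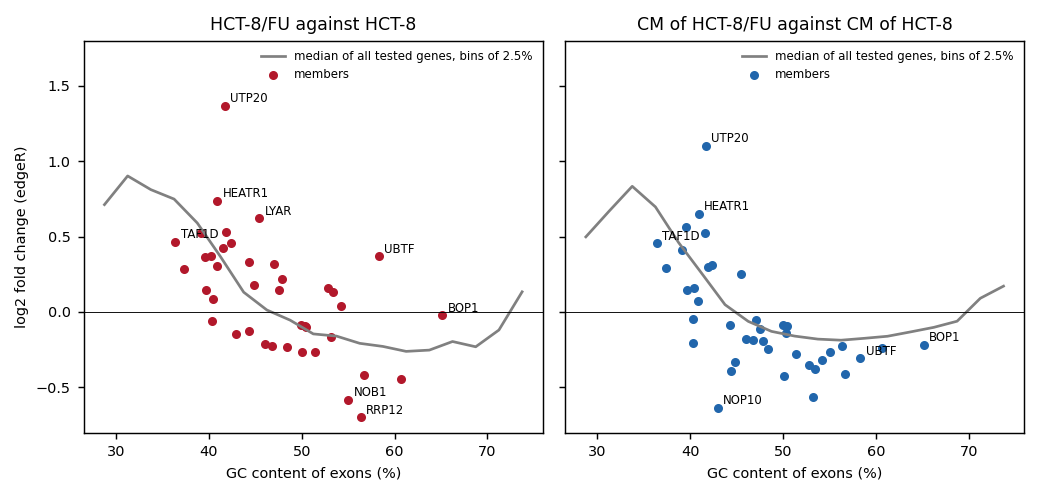
Log2 fold change against the GC content of exons for the 40 genes (points) and the median of all tested genes in bins of 2.5% GC (line, bins of 20 genes or more), for HCT-8/FU versus HCT-8 (left) and CM of HCT-8/FU versus CM of HCT-8 (right). UTP20 lies above the line in both panels, at 1.37 and 1.10, while HEATR1 at 0.74 and 0.65 lies nearer to it.

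The rest of the pathway was read from 117 further genes of Pol I, the processome, the large subunit and the exosome, with MYC as a regulator. All were tested. Between the 2 lines, 11 of the 117 were higher and 8 lower, against 13.2% and 8.12% of all genes, with a median of -0.08. Between the conditioned media 12 were higher and 0 lower in edgeR and in DESeq2, against 7.97% and 1.28% of all genes in edgeR, shares near the background. In edgeR 61 of the 117 had an unadjusted p under 0.05 in either direction, for which no share of all genes is given. The median was -0.16, against -0.06 for all genes. After the GC and length correction the counts were 1 higher and 12 lower between the lines, and 0 higher and 4 lower between the media. Of all 19857 genes, 1446 were then higher and 1600 lower between the lines, and 526 higher and 428 lower between the media. The counts of the 117 thus turned in direction, and between the lines those of all genes did as well. Before the correction, the processome genes KRR1 (1.06 between the lines and 0.97 between the media) and WDR36 (0.91 and 1.00) were higher in both comparisons. So were NOC3L (1.02 and 0.73), a large subunit factor, the exosome helicase MTREX (0.79 and 0.84) and nuclease DIS3 (0.93 and 1.00), and the Pol I subunit POLR1F (1.181 and 0.95). TAF1B, which sits in the selectivity factor beside TAF1D, was higher in HCT-8/FU (0.72) with 0.12 between the media. After the correction 1 of the 117 was higher between the lines and 0 between the media. None of the genes from KRR1 to TAF1B therefore kept such a call between the media, and at most 1 did between the lines. ZNF622, a factor of late large subunit maturation, was lower in HCT-8/FU (-0.90) with -0.15 between the media, and this difference of -0.75 passed both thresholds (edgeR FDR 0.00264). MYC, a known activator of many genes in the set, was at 244 and 241 CPM in HCT-8 and at 240 and 235 CPM in HCT-8/FU (-0.03, edgeR FDR 0.804). It was at 354 and 298 CPM in CM of HCT-8 and at 264 and 260 CPM in CM of HCT-8/FU (-0.31, edgeR FDR 0.0117), lower by the FDR alone.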

How the data were processed

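Total RNA of 8 samples of human HCT-8 or HCT-8/FU cells was sequenced after mRNA capture. Per the labels and the study's methods, the authors aligned reads to GRCh38 with HISAT2, used SAMtools 1.18 and HTSeq 0.11.2 to count reads per gene, and deposited raw counts. The 5 HTSeq lines that name no gene entered neither library sizes nor tests: 3.58% to 29.6% of a library's records were not aligned, 33.7% to 49.6% fell on no feature, 1.15% to 1.57% were ambiguous, 2.24% to 3.48% had several alignments and 2.20% to 5.77% a low quality. The deposited DESeq2 1.30.0 tables hold the authors' own comparisons (mean normalized counts, log2 fold changes, standard errors, statistics and p-values) and were not used.

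Groups and replicates were taken from the titles. In R 4.3.3, edgeR 4.0.16 (TMM with HCT-8 replicate 2 as reference, filterByExpr, quasi-likelihood test) fitted 4 group means to all 8 libraries, with Benjamini-Hochberg adjustment over 20305 genes. The thresholds, an FDR of 0.05 and an absolute log2 fold change of 0.58, follow the study. SE is the absolute log2 fold change over the square root of F. On counts simulated for HCT-8/FU versus HCT-8, 93% of genes changed by 1 and 100% of those changed by 2 on the log2 scale were found, with 13 false calls among 19788 genes. The simulated libraries did not differ by GC content, and no smaller changes were simulated. These figures therefore do not apply to calls near 0.58 or to differences that go along with base composition. Positions, exon lengths and GC contents are from GENCODE 44 (GRCh38), which held 56105 of the 64253 identifiers, and promoter windows from RefSeq (GRCh38.p14). Replicates of a group differed by more than sampling noise and were kept apart.

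The members, the other lists and the tests were chosen with earlier results of these data known. All 40 genes could be named. Values in every library were given for the 2 genes of each role with the largest change between the 2 lines, the largest rise and fall between the conditioned media, the gene past the thresholds in the difference, and FBL, NPM1, HEATR1, POLR1A and UBTF. Outside the set, the 2 genes of each list with the smallest p and MYC were named. Values per library of NOP56, DDX21 and RRP12 between the conditioned media and of LYAR were added after the values were seen. Alternatives were DESeq2 size factors, no filter, DESeq2 1.42.0, the compared groups only, a replicate block, a GC and length correction (spline with 5 degrees of freedom, 19857 genes) with and without the block, the FDR alone, CM of HCT-8 replicate 2 as TMM reference, a term for libraries with over 15% not aligned, and each library left out. A fit without those 3 libraries and a crossed block were added after the data were seen.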

Additional observations from a re-analysis of the deposited data

Results flagged for a closer look

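For 5 of the 40 genes the change between the 2 lines differed from the change between the 2 conditioned media, by the interaction term of the fit (edgeR, quasi-likelihood, FDR by Benjamini-Hochberg). By the same FDR alone 11.6% of all genes did so, and the count of 5 is near that background share. The difference was 0.68 (log2) for UBTF, with an FDR of 0.000746. It was 0.51 for NOP56 (edgeR FDR 0.00497), 0.51 for DKC1 (0.512 before rounding, edgeR FDR 0.0166) and 0.58 for WDR12 (edgeR FDR 0.0107). For RRP12 it was -0.48 (edgeR FDR 0.00946). The first 4 genes had a higher mean in the resistant line and a lower one in its medium. RRP12 was lower in both. Between the lines NOP56 (0.16, edgeR FDR 0.114) and DKC1 (0.18, edgeR FDR 0.154) missed the FDR. WDR12 missed it between the media (-0.21, edgeR FDR 0.135). After the GC and length correction WDR12 was negative in both comparisons (-0.12 between the lines and -0.68 between the media), and DKC1 was at 0.02 between the lines. In CM of HCT-8 all of the first 4 were above HCT-8 in both libraries, and that group is the reference of the second comparison. After the GC and length correction the differences of UBTF (0.79), WDR12 (0.56) and NOP56 (0.54) passed the FDR, while those of DKC1 (0.50, edgeR FDR 0.0545) and RRP12 (-0.38, edgeR FDR 0.109) did not.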

How the results depend on the processing

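With 2 libraries per group and 3 libraries of poor alignment, values near a log2 fold change of 0.58 moved across the threshold with the setting. No direction of a called gene was reversed. UTP20 passed in both comparisons under all alternatives run. Between the 2 lines, the count of 5 fell to 1 under the GC and length correction, with or without the replicate block, and was 20 by the FDR alone and 4 to 6 with each library left out. Between the conditioned media, the count of 3 became 20 by the FDR alone and 2 to 4 with each library left out, and DDX21 and UTP15 passed in several fits. NOP10 lost its call under 10 of 19 alternatives, among them DESeq2 (-0.64, adjusted p 0.223) and the fit without the 3 poorly aligned libraries (-0.25). For CM of HCT-8 against HCT-8, the count of 0 became 11 by the FDR alone, 1 without the 3 poorly aligned libraries (UBTF, 0.60), and 0 to 3 with each library left out. For the difference between comparisons, the count of 1 became 2 with the replicate block and 2 with the other TMM reference (WDR12 added in both), 5 by the FDR alone, and 1 to 5 with each library left out. Leaving out HCT-8/FU replicate 1 gave 5, without replicate 2 of CM of HCT-8 there were 4, without replicate 1 of CM of HCT-8/FU there were 2, and without replicate 2 of HCT-8 the 1 gene was RRP12 and not UBTF. The labels do not say whether replicate numbers pair the samples. Same-numbered libraries had correlations of their deviations from -0.14 to 0.17. This cannot settle a pairing, because the 3 poorly aligned libraries do not share a replicate number. The replicate block left the counts at 5, 3 and 0 in the comparisons between groups. With the HCT-8/FU numbers crossed, a pairing chosen after seeing the data, 4 members passed in place of 5. Without the 3 poorly aligned libraries 4 members passed in each of the first and second comparisons. The median of the 40 genes between the 2 lines turned from 0.14 to -0.05 under the GC and length correction and was 0.02 without HCT-8 replicate 2. Without that library, the medians were -0.10 for CM of HCT-8 against HCT-8 (0.01 with it) and -0.03 for the difference (0.13 with it). The cause was not tested.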
